A study of Mus musculus with 4 samples.

Results

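Airway secretory transcripts were examined in RNA from alveolar epithelial type II cells, the surfactant-making cells of the alveolus, of C57BL/6 mice aged 14 weeks. The 7 genes were chosen by symbol as secreted products of conducting airway epithelium, with earlier results of these data known. They were the secretoglobins Scgb1a1, Scgb3a1 and Scgb3a2, the BPI fold proteins Bpifa1 and Bpifb1, the mucin Muc5b and the lectin Reg3g. All 7 were found among the 25759 gene symbols of the count table, and all 7 passed the filter on low counts that left 13306 genes for testing. There were 2 wild-type (WT) samples and 2 samples labelled as Sftpc-mTOR transgenic (mTOR Tg), described by the submitters as carrying a conditional, active form of the growth kinase mTOR in the epithelium. Sftpc is the surfactant protein C gene, whose promoter is active in type II cells. The construct, any inducing agent, the sex of the mice, and whether a sample was 1 mouse or a pool were not given in the sources used here. P-values therefore measure only the spread between these samples, which may be technical.

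Secretoglobins are small secreted proteins of mucosal surfaces, and in the mouse lung they are made chiefly by club cells, the non-ciliated secretory cells of the bronchioles. BPI fold proteins are lipid-binding proteins of the airway lining fluid, Muc5b is the main gel-forming mucin of the healthy airway and carries mucociliary clearance, and Reg3g is an antibacterial C-type lectin that epithelia make under the control of interleukin-22 and interleukin-17 signals. None of these products is a defining marker of type II cells. In bulk RNA, fewer cells of a type and less RNA per cell cannot be told apart.

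Library totals were 18146693 counts for WT replicate 1, 19018785 for WT replicate 2, 21972124 for mTOR Tg replicate 1 and 20273396 for mTOR Tg replicate 2. Markers of type II cells were abundant, with a summed level of 131305 to 178118 CPM (counts scaled to the library total) for 20 markers, and Sftpc at 60979 to 75802 normalised CPM. Normalised CPM are CPM after scaling by TMM, the trimmed mean of M values. Leukocyte markers were close to absent, at 12.1 to 17.2 summed CPM over 11 markers, of which Cd3e, C1qb, Ms4a1 and Ly6g had no count. mTOR Tg replicate 1 differed from the rest in its content of short and long genes. Among the 3286 tested genes with the shortest summed exons, from 0.204 to 2.08 kb, its median log2 difference from the WT mean was 0.44, and among the 3283 with the longest, of at least 4.98 kb, it was -0.53. In mTOR Tg replicate 2 the same medians were -0.00 and 0.00. The biological coefficient of variation, the spread between replicates beyond counting error, was 0.0891 in the WT pair and 0.325 in the mTOR Tg pair.

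Each of the 7 transcripts was highest in mTOR Tg replicate 1, by 1.28-fold for Bpifa1 to 3.40-fold for Scgb3a1 over the WT mean. Over all tested genes, 44.7% lay above both WT libraries in mTOR Tg replicate 1. In mTOR Tg replicate 2, Scgb1a1 and Scgb3a2 lay below both WT libraries, Scgb3a1, Bpifa1 and Muc5b lay between them, and Bpifb1 and Reg3g lay above them. The genotype comparison therefore had overlapping groups for 5 of the 7 genes, and non-overlapping groups for Bpifb1 and Reg3g, with both mTOR Tg libraries above both WT libraries. That order of the groups was found in 17.6% of all tested genes, and the reverse order in 17.0%.

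**Figure D1:**
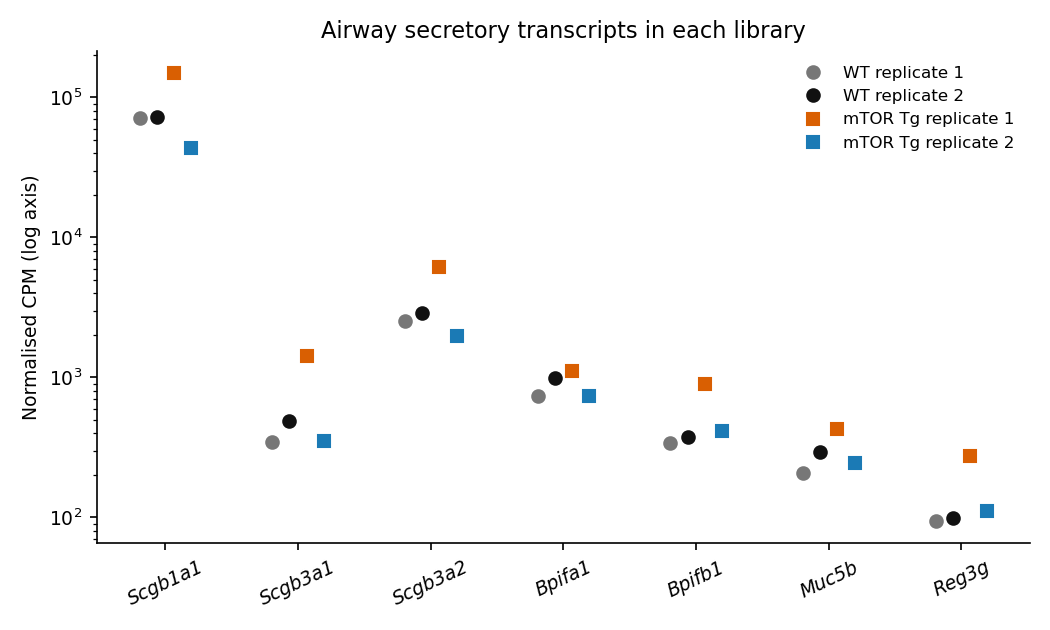
Normalised CPM (log axis) of the 7 airway secretory transcripts in each of the 4 libraries. Circles are WT and squares mTOR Tg. Every gene has its highest point in mTOR Tg replicate 1, and Bpifb1 and Reg3g are the genes whose mTOR Tg replicate 2 point also lies above both WT points.

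The upstream sequences of members with the widest gap between mTOR Tg replicate 1 and the WT mean (Scgb3a1, Reg3g and Bpifb1) are shown with that of Bpifa1, which had the smallest. They are the 250 bases before the transcription start in RefSeq on GRCm38.p6, whose promoter table matched 4 of the 7 genes, and Scgb1a1, Scgb3a2 and Muc5b were not matched. Capitals mark matches on either strand to 4 patterns: TATAAA (the TATA box), TGTTTNC (bound by FOXA factors), TCAAGNG (bound by NKX2-1) and TTCNNNGAA (bound by STAT factors). Scgb3a1 is shown from chr11:49663345-49663594 (+ strand), Bpifb1 from chr2:154190568-154190817 (+ strand, at the first of 2 starts), Reg3g from chr6:78468875-78469124 (− strand) and Bpifa1 from chr2:154142630-154142879 (+ strand).
Scgb3a1: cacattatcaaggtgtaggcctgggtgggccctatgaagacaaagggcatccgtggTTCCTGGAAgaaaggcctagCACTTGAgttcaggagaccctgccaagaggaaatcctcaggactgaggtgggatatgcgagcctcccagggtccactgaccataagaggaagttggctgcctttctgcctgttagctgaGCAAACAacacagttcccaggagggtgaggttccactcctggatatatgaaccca
Bpifb1: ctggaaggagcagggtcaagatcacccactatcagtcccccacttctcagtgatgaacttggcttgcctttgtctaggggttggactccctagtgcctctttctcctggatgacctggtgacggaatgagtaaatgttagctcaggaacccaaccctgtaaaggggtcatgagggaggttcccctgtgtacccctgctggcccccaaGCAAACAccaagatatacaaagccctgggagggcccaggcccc
Reg3g: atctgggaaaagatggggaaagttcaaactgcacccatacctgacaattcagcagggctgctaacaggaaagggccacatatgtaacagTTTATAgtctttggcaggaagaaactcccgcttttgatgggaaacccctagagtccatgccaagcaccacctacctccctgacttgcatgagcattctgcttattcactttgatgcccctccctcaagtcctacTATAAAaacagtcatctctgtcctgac
Bpifa1: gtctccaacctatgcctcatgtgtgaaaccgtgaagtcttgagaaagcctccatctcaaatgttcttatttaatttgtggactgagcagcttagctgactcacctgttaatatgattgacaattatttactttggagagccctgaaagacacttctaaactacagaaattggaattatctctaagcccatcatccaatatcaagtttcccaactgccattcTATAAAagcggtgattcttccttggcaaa
TATAAA was found from 29 to 24 bases before the start of Bpifa1 and from 27 to 22 bases before that of Reg3g, which also held it on the opposite strand further upstream. In Scgb3a1 and in this start of Bpifb1 the letters were not found. GCAAACA, the opposite strand of TGTTTNC, was found 55 to 49 bases before the start of Scgb3a1 and 43 to 37 bases before that of Bpifb1. Scgb3a1 also held TCAAGNG on the opposite strand, 174 to 168 bases before its start, and TTCCTGGAA, 194 to 186 bases before it. The second start of Bpifb1 held TTCCAGGAA, 146 to 138 bases before it. Among 32851 promoters of the table, 12.4% held TATAAA in the same window, 17.8% TGTTTNC, 9.46% TCAAGNG and 7.02% TTCNNNGAA. A match describes these letters only and is not a measured site.

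Scgb1a1 encodes the club cell secretory protein, the most abundant protein of the distal airway lining fluid. Its normalised CPM was 70841 and 72551 in WT replicates 1 and 2, and 149259 and 43845 in mTOR Tg replicates 1 and 2. The mTOR Tg libraries thus lay on opposite sides of the WT pair, 3.40-fold apart from each other, whereas the WT libraries were 1.02-fold apart. By raw counts Scgb1a1 ranked 1st in WT replicate 2 and in mTOR Tg replicate 1, and 2nd in the other libraries. The mean level of the WT pair was 71696 ± 1210 CPM and that of the mTOR Tg pair 96552 ± 74540 CPM (SD, n = 2). The log2 fold change of mTOR Tg over WT was 0.43 (SE 0.67, edgeR quasi-likelihood test, Benjamini-Hochberg adjusted p = 0.873), and leaving out mTOR Tg replicate 1 gave -0.71, where leaving out mTOR Tg replicate 2 gave 1.06.

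Scgb3a2, a secretoglobin of club cells that is a known target of the lung transcription factor NKX2-1, followed Scgb1a1. It was at 2539 and 2896 CPM in WT and at 6159 and 1985 CPM in mTOR Tg replicates 1 and 2. Both mTOR Tg values lay outside the WT pair, on opposite sides, so the groups overlapped. Among pairs of the 7 genes, Scgb1a1 and Scgb3a2 had the second smallest distance between their profiles (0.241), taken as the Euclidean distance over the 4 libraries in log2 CPM centred on each gene's mean. Scgb3a2 counts per 1000 counts of Scgb1a1 were 35.8 and 39.9 for WT and 41.3 and 45.3 for mTOR Tg. The log2 fold change of Scgb3a2 was 0.58 (SE 0.54, edgeR adjusted p = 0.860), against -0.45 without mTOR Tg replicate 1.

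Scgb3a1, a secretoglobin found mostly in larger airways and also known as a growth-inhibitory cytokine-like protein, varied most. It was at 347 and 485 CPM in WT and at 1415 and 353 CPM in mTOR Tg. The second mTOR Tg library was within the WT range, and the first was 4.01-fold above the second. This gene ranked 46th by raw counts in mTOR Tg replicate 1, against 169th and 295th in the WT libraries. Its log2 fold change was 1.09 (SE 0.63, edgeR adjusted p = 0.860), and it changed sign, to -0.24, without mTOR Tg replicate 1. The remaining secretoglobin symbols of the table were nearly silent. Of 31 others, 30 had no count in any library, where 3 counts, the upper limit that a count of 0 allows, correspond to 0.137 to 0.165 CPM. The exception, Scgb1c1, was at 23.4 and 25.3 CPM in WT and at 42.1 and 24.5 CPM in mTOR Tg, so that its second mTOR Tg library also fell between the WT values.

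Bpifb1, a BPI fold protein of mucus-secreting airway cells, was at 339 and 373 CPM in WT and at 903 and 413 CPM in mTOR Tg. Both mTOR Tg libraries were above both WT libraries, mTOR Tg replicate 2 by a margin (1.16-fold over the WT mean) close to the gap between the WT libraries (1.10-fold). The mean of the WT pair was 356 ± 24.5 CPM and that of the mTOR Tg pair 658 ± 347 CPM (SD, n = 2). The log2 fold change was 0.89 (SE 0.39, edgeR unadjusted p = 0.0669, adjusted p = 0.860), and it was 0.21 without mTOR Tg replicate 1.

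Reg3g, the lectin that binds Gram-positive bacteria, gave nearly the same profile. It was at 94.7 and 98.7 CPM in WT and at 273 and 111 CPM in mTOR Tg. The raw counts behind these were 1726 and 1954 for WT and 5565 and 2326 for mTOR Tg. The groups did not overlap, and the WT libraries were 1.04-fold apart where the mTOR Tg libraries were 2.45-fold apart. Bpifb1 and Reg3g had the smallest distance of the 21 pairs of the 7 genes (0.147), although they lie on different chromosomes. The log2 fold change of Reg3g was 0.99 (SE 0.43, edgeR unadjusted p = 0.0620, adjusted p = 0.860), against 0.20 without mTOR Tg replicate 1. Its close relatives were not detected: Reg3a, Reg3b, Reg3d, Reg2 and Reg4 had no count in any library, against the same limit of 0.137 to 0.165 CPM, and Reg1 had 3, 1, 5 and 0 counts.

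Bpifa1, a surface-active protein of the airway lining that limits sodium channel activity, varied least between the mTOR Tg libraries. It was at 738 and 990 CPM in WT and at 1110 and 744 CPM in mTOR Tg. The groups overlapped, and the gap between the WT libraries (1.34-fold) was close to the gap between the mTOR Tg libraries (1.49-fold). The log2 fold change was 0.10 (SE 0.30, edgeR adjusted p = 0.925), and it was -0.10 without WT replicate 1 and -0.22 without mTOR Tg replicate 1. Relative to Scgb1a1 it was lowest in mTOR Tg replicate 1, with 7.43 Bpifa1 counts per 1000 Scgb1a1 counts, against 10.4 and 13.6 for WT and 17.0 for mTOR Tg replicate 2. Of 12 other BPI fold symbols 10 had no count, and Bpifb5, a relative of Bpifb1, was at 24.4 and 18.8 CPM in WT and at 17.6 and 22.8 CPM in mTOR Tg.

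Muc5b was at 208 and 294 CPM in WT and at 432 and 244 CPM in mTOR Tg. The second mTOR Tg value was between the WT values, which were 1.41-fold apart. Its log2 fold change was 0.43 (SE 0.34, edgeR adjusted p = 0.860), and -0.04 without mTOR Tg replicate 1. Muc5b is by far the longest of the 7 genes, with 14.96 kb of exons against 0.476 to 1.74 kb for the others. The inducible gel-forming mucin Muc5ac was low, at 9.16 and 8.33 CPM in WT and at 8.24 and 5.41 CPM in mTOR Tg. Muc1, a membrane mucin that type II cells also express, was at 770 to 895 CPM in the 4 libraries. Muc4, a membrane mucin, was at 61.8 and 73.5 CPM in WT and at 64.5 and 93.6 CPM in mTOR Tg, and Muc20 at 29.2 and 34.2 CPM and at 31.2 and 21.4 CPM. Muc16 had 0, 28, 9 and 15 counts and Muc6 had 3, 11, 5 and 3 counts, both with the WT libraries first.

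No gene of the 7 passed the adjusted threshold of 0.05. The edgeR test called 0 of 13306 genes in all (0.0%), and 327 genes (2.46%) had an unadjusted p under 0.05, none of them one of the 7. limma-voom called 0 genes and DESeq2 called 13 of 13239 (0.0982%), and neither called any of the 7. The unadjusted p of DESeq2 was 0.0106 for Reg3g, 0.0153 for Bpifb1 and 0.0215 for Scgb3a1, with an adjusted p = 0.999 for each. The median log2 fold change of the 7 genes was 0.58 and that of all tested genes 0.01. All 7 estimates were positive with all libraries, and 5 of them became negative without mTOR Tg replicate 1, the exceptions being Bpifb1 and Reg3g. Without mTOR Tg replicate 2 the test called 5 of the 7 genes, all higher, but that fit leaves 1 mTOR Tg library, which is assumed to vary like the WT pair, and it called 45.5% of all tested genes. No member was called without mTOR Tg replicate 1, WT replicate 1 or WT replicate 2, fits that called 2.2%, 0.0802% and 0.109% of genes.

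**Figure D2:**
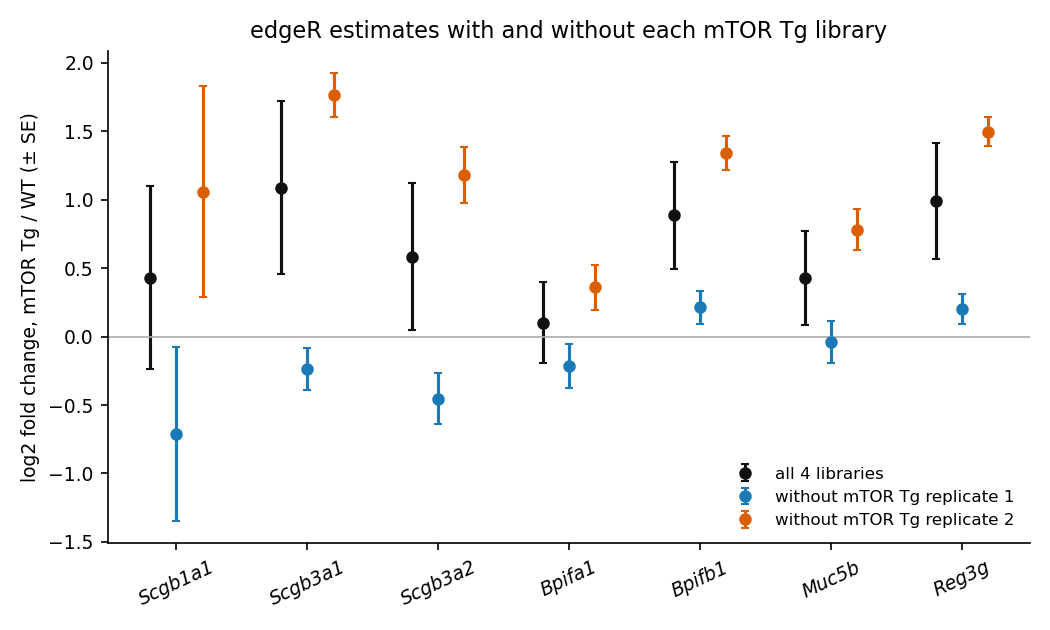
Log2 fold change of mTOR Tg over WT with its standard error for each gene, from all 4 libraries and without either mTOR Tg library. Estimates without mTOR Tg replicate 1 run from -0.71 (Scgb1a1) to 0.21 (Bpifb1), and those without mTOR Tg replicate 2 from 0.36 (Bpifa1) to 1.76 (Scgb3a1).

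Abundance across the 7 genes is comparable only per exon length. On the scale of normalised CPM per kb of exon, Scgb1a1 was at 92111 to 313570, far above the others. Scgb3a2 followed at 2256 to 6999, above Scgb3a1 and Bpifa1 in every library. Scgb3a1 (580 to 2366) and Bpifa1 (668 to 1003) were not separable, since Bpifa1 was higher in both WT libraries and mTOR Tg replicate 2 and Scgb3a1 was higher in mTOR Tg replicate 1. Bpifb1 was at 195 to 519, Reg3g at 123 to 354 and Muc5b at 13.9 to 28.9, in that order in every library. By raw counts, Scgb1a1 made up 91.9% to 94.3% of the summed counts of the 7 genes. The other 6 genes together took 0.428% (95% exact interval 0.425 to 0.431) and 0.535% (0.532 to 0.538) of all counts in WT, and 0.955% (0.951 to 0.959) and 0.397% (0.394 to 0.400) in mTOR Tg. These intervals cover counting error only.

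Markers of club cells that are not among the 7 genes were also highest, in sum, in mTOR Tg replicate 1. A list of 23 other club cell markers summed to 25002 and 27445 CPM in WT, 38286 CPM in mTOR Tg replicate 1 and 21663 CPM in mTOR Tg replicate 2, and 1 of them, Kcnj16, had no count. Cyp2f2, the xenobiotic-metabolising cytochrome P450 of club cells, was at 6588 and 7270 CPM in WT and at 10554 and 5241 CPM in mTOR Tg. The carbonyl reductase gene Cbr2, which alveolar cells can also express, was at 7357 and 7864 CPM in WT and at 14413 and 6228 CPM in mTOR Tg. In both genes mTOR Tg replicate 1 was above and mTOR Tg replicate 2 below the WT pair, the same order as for Scgb1a1 and Scgb3a2. Of the 22 tested markers of the list, 0 were called, 19 were above both WT libraries in mTOR Tg replicate 1, and Aldh1a1 and Gsto1 had both mTOR Tg libraries above both WT libraries. Over all tested genes these shares were 44.7% and 17.6%. The median log2 fold change of the list was 0.17, with medians of 0.65 in mTOR Tg replicate 1 and -0.32 in mTOR Tg replicate 2, where the 7 genes had medians of 1.18 and -0.20.

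Ciliated cell markers report on the other main cell type of the bronchioles. In sum and by median they were also higher in mTOR Tg replicate 1. Their 23 markers, of which Sec14l3 stands in the club list too, summed to 3776 and 4369 CPM in WT, 5992 CPM in mTOR Tg replicate 1 and 3707 CPM in mTOR Tg replicate 2. Their median lay 1.02 above the WT mean on the log2 scale in mTOR Tg replicate 1 and 0.01 above it in mTOR Tg replicate 2. Of the 23, 17 lay above both WT libraries in mTOR Tg replicate 1, against 44.7% of all tested genes. The most abundant, Sec14l3, lay at -0.04 there, Dnah5 at -0.47, Ccdc39 at -0.40 and Hydin at -0.36. Foxj1, the transcription factor of motile cilia, was at 332 and 423 CPM in WT and at 856 and 353 CPM in mTOR Tg, with mTOR Tg replicate 2 inside the WT range. Type II markers had a median of -0.33 in mTOR Tg replicate 1 and of 0.13 in mTOR Tg replicate 2. In mTOR Tg replicate 1, 3 of the 19 tested lay above both WT libraries, against 44.7% of all tested genes. There Sftpc lay at 0.09 and Sftpd at 0.29 from the WT mean, and Abca3 at -0.65 and Lamp3 at -0.87. That library held more reads of short genes, and these list medians were not corrected for length. Basal cell markers summed to 3.14 and 12.8 CPM in WT and to 5.55 and 8.04 CPM in mTOR Tg. Neuroendocrine markers summed to 17.1 and 30.8 CPM in WT and to 27.8 and 26.7 CPM in mTOR Tg. Both of these lists were highest in WT replicate 2. Erythroid markers, chiefly the globins, summed to 2548 and 3683 CPM in WT, 3235 CPM in mTOR Tg replicate 1 and 1041 CPM in mTOR Tg replicate 2. Endothelial markers summed to 158 and 164 CPM in WT and to 95.5 and 103 CPM in mTOR Tg, and 6 of 9 had both mTOR Tg libraries below both WT libraries. Type I markers summed to 2284 and 2183 CPM in WT and to 2509 and 2381 CPM in mTOR Tg, and 4 of 10 had both mTOR Tg libraries above both WT libraries. Mesothelial markers, chiefly Krt19, which airway epithelium also expresses, summed to 186 and 198 CPM in WT and to 374 and 178 CPM in mTOR Tg, and 3 of 5 tested had both mTOR Tg libraries above. Over all tested genes, 17.6% had both mTOR Tg libraries above both WT libraries and 17.0% had both below. Mesenchymal markers summed to 36.3 to 65.8 CPM. None of these markers was called. The part of these marker levels in the results for the 7 genes was not tested.

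**Figure D3:**
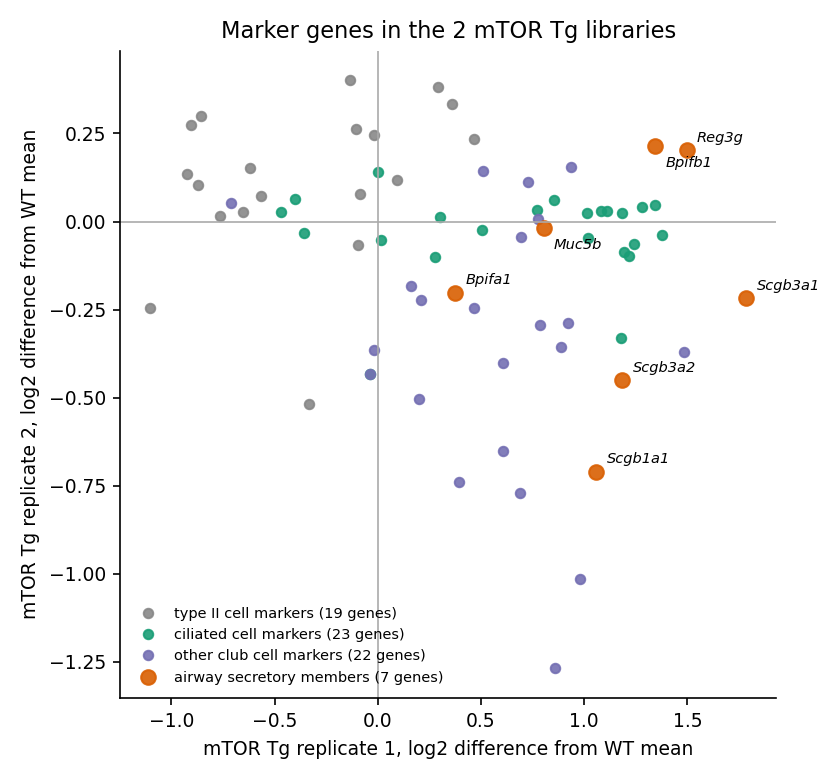
Log2 difference from the WT mean in mTOR Tg replicate 1 (horizontal) and mTOR Tg replicate 2 (vertical), 1 point per gene, for the 7 airway secretory genes and for markers of club, ciliated and type II cells (Sec14l3 belongs to both airway lists). The 7 genes all lie to the right of 0, and Bpifb1 and Reg3g lie above 0 on the vertical axis too.

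Counts of the 7 genes were next expressed per 100 counts of the 23 other club markers, which needs no library total. The most abundant of these markers were Cbr2, which alveolar cells can also express, and Cyp2f2. The ratios were not corrected for exon length. Reg3g had 0.380 and 0.374 counts for WT and 0.662 and 0.530 for mTOR Tg, and Bpifb1 had 1.36 and 1.42 in WT and 2.19 and 1.96 in mTOR Tg. The mTOR Tg values of both genes were above both WT values, by 0.65 and 0.58 on the log2 scale. Scgb1a1 had 285 and 275 counts for WT and 362 and 209 for mTOR Tg, with a mean log2 difference of -0.03 and mTOR Tg libraries on either side of WT. Scgb3a1 had 1.39 and 1.84 counts for WT and 3.43 and 1.68 for mTOR Tg, and Bpifa1 had 2.97 and 3.76 in WT and 2.69 and 3.54 in mTOR Tg. Muc5b, at 0.836, 1.11, 1.05 and 1.16, and Scgb3a2, at 10.2, 11.0, 14.9 and 9.45, had overlapping groups in the same order of libraries. With 2 samples against 2, a two-sided exact permutation test cannot give a p under 0.33, which Reg3g and Bpifb1 reached, and over the 7 ratios the adjusted p was 0.934 for both.

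Because mTOR Tg replicate 1 held more reads of short genes, the 7 genes were also set against the trend with length. A smooth fit of each library on exon length put genes as long as Scgb1a1 0.69 above the WT mean on the log2 scale in mTOR Tg replicate 1, and genes as long as Muc5b 0.94 below it. After removal of that trend, Scgb1a1 lay 0.37 above the WT mean in mTOR Tg replicate 1, Bpifa1 -0.12 from it and Muc5b 1.75 above it, where 425 tested genes had exons of at least 10 kb. Reg3g then lay 0.91 above the WT mean in mTOR Tg replicate 1 and 0.22 in mTOR Tg replicate 2, and Bpifb1 0.99 and 0.21. In the edgeR test with this trend as an offset, the log2 fold change was 0.60 (SE 0.25, adjusted p = 0.870) for Reg3g, 0.65 (SE 0.28) for Bpifb1, 0.59 for Scgb3a1 and 1.11 (SE 0.55) for Muc5b. It was -0.06 for Scgb1a1 and -0.18 for Bpifa1, a change of sign for both, and 0.18 for Scgb3a2.

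**Figure D4:**
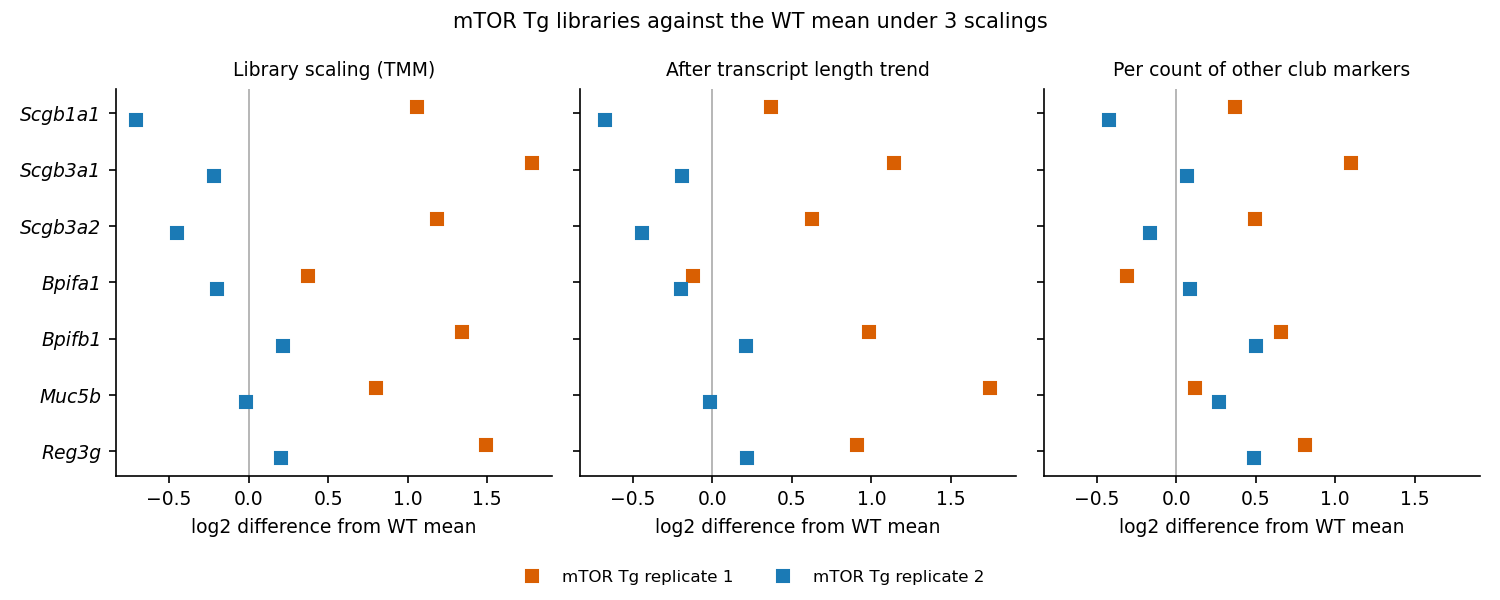
Log2 difference of each mTOR Tg library from the WT mean for the 7 genes, with library scaling alone, after removal of the transcript length trend, and per count of the 23 other club cell markers. Bpifb1 and Reg3g are above 0 in both libraries in all 3 panels, whereas Scgb1a1 and Scgb3a2 have their mTOR Tg libraries on opposite sides of 0 in all 3.

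Genes outside the 7 with the most similar profiles were sought among 9104 tested genes with a mean of at least 10 normalised CPM, by Euclidean distance over the 4 libraries. Nearest to Scgb1a1 were Sphk1 (distance 0.124), Lrrc26 (0.169), Tff2 (0.174), Fam83e (0.197) and Slc16a11 (0.202). Tff2, a trefoil peptide secreted with mucus, was at 33.1 and 30.9 CPM in WT and at 75.1 and 19.7 CPM in mTOR Tg. Nearest to Scgb3a2 were Ak8 (0.0547), Ccdc33 (0.0760) and Lfng (0.0970). The nearest gene was Gm1673 (0.290) for Scgb3a1, Taf1a (0.0281) for Bpifa1, Pcp4l1 (0.0613) for Bpifb1, Ajuba (0.103) for Muc5b and 9530053A07Rik (0.0751) for Reg3g. Each profile has only 4 points.

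Genes of mucus production and its control gave no call. Of 15 tested members of the goblet and mucin list 0 were called, 8 had a positive log2 fold change, and the list median was 0.02. Spdef, the transcription factor of goblet cells, was at 8.29 and 8.54 CPM in WT and at 17.9 and 6.36 CPM in mTOR Tg. Qsox1, a sulfhydryl oxidase of the secretory pathway, was at 169 and 179 CPM in WT and at 340 and 151 CPM in mTOR Tg. Both had the mTOR Tg libraries on either side of the WT pair. Creb3l1, Galnt7 and Muc5ac, named after their values were seen, had both mTOR Tg libraries below both WT libraries, so that 3 of 15 genes held an order found in 17.0% of all tested genes. Among 21 transcription factors and Notch genes of airway epithelium 0 were called, 8 were positive and the median was -0.05. Nkx2-1 was at 669 and 594 CPM in WT and at 494 and 617 CPM in mTOR Tg, and the pioneer factor gene Foxa1 at 189 and 192 CPM and at 125 and 160 CPM. Foxa1, Ehf, Klf5, Gata6 and Notch3, also named after their values were seen, were lower in both mTOR Tg libraries than in both WT libraries, while none of the 21 was higher in both. Over all tested genes 17.0% were lower and 17.6% higher in this way, and the 5 of 21 are near that share. These list values were not corrected for exon length, and long genes were low in mTOR Tg replicate 1.

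Receptors and signal genes of pathways that induce Reg3g in epithelia gave no call. Of 15 tested genes 0 were called, 7 were positive and the median was -0.00. Stat3, which carries the interleukin-22 signal, was at 289 and 295 CPM in WT and at 249 and 338 CPM in mTOR Tg. Il6st was at 244 and 283 CPM in WT and at 135 and 267 CPM in mTOR Tg (log2 fold change -0.39). Socs3, the feedback inhibitor induced by STAT3, was at 145 and 117 CPM in WT and at 162 and 190 CPM in mTOR Tg, both above WT (log2 fold change 0.42, SE 0.22, edgeR adjusted p = 0.860). Both mTOR Tg libraries were above both WT libraries in 3 of the 15 genes and below them in 1, Tlr4. These counts are near the shares of all tested genes, 17.6% and 17.0%, and were not corrected for exon length. Of 18 tested genes of induced mucosal defence 0 were called, 15 were positive and the median was 0.39. Both mTOR Tg libraries were above both WT libraries in 6 of these 18 genes and below them in 1, Nfkbiz, against 17.6% and 17.0% of all tested genes. The 6 were Lyz1, C3, Lcn2, Slpi, Cxcl5 and Ccl20. Each had its higher value in mTOR Tg replicate 2, unlike the 7 airway genes. The lysozyme gene Lyz1 was at 964 and 1185 CPM in WT and at 1310 and 2781 CPM in mTOR Tg. The margin between the mTOR Tg libraries was small in C3, at 760 and 762 CPM. Wfdc2, an antiprotease-like secreted protein of airway epithelium, was at 1438 and 1316 CPM in WT and at 2706 and 1331 CPM in mTOR Tg, where mTOR Tg replicate 2 fell inside the WT range.

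The 7 genes lie on 6 chromosomes, with positions from GENCODE M21 on the mm10 assembly (GRCm38). Bpifa1 (chromosome 2, 154142880 to 154149219) and Bpifb1 (chromosome 2, 154190818 to 154220369) are neighbours in the BPI fold cluster, yet Bpifb1 lay 2.54-fold above the WT mean in mTOR Tg replicate 1 where Bpifa1 lay 1.28-fold above it. Scgb1a1 lies on chromosome 19 (9083636 to 9087958), Scgb3a1 on chromosome 11 (49663610 to 49665118), Muc5b on chromosome 7 (141839070 to 141873084) and Reg3g on chromosome 6 (78466269 to 78468872). Scgb3a2 lies on chromosome 18. None of the 7 overlaps another gene of the basic annotation.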

How the data were processed

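RNA of 4 samples, 2 WT and 2 mTOR Tg, was read as the deposited whole-number counts per gene symbol. Per the submitters' processing notes, HISAT2, edgeR and the build mm10 were used. The counting program, annotation and strandedness were not given in the sources used here. Columns were matched to samples by the names in the labels. Of 25759 symbols 8059 had no count. Genes were kept with filterByExpr (minimum count 10), scaled with TMM and compared with the quasi-likelihood test of edgeR 4.0.16 in R 4.3.3, with genotype as the only term and Benjamini-Hochberg adjustment over 13306 genes. The standard error is the log2 fold change divided by the square root of F. Log2 CPM used a prior count of 2. Exon lengths are unions of exons in GENCODE M21 and were found for 98.7% of tested genes. The length trend was a lowess fit (span 0.3). The code was tested on simulated counts. The members and gene lists were chosen with earlier results of these data known. Named by rule were the 7 members, the most abundant genes of each list, relatives by symbol with at least 10 counts and the nearest profiles, and only some of these are printed. Alternatives covered scaling, filters, edgeR options, limma-voom (limma 3.58.1), DESeq2 1.42.0, the threshold, the replicate block, length and each library left out.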

Additional observations from a re-analysis of the deposited data

How the results depend on the processing

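The edgeR test called 0 genes, also with other scalings, other filters, edgeR's robust and legacy options, a threshold of 0.1, limma-voom or the transcript length offset. DESeq2 called 13 genes. With a library left out the count ran from 11 to 6197. The labels number the replicates 1 and 2 in both genotypes, but the deviations of same-numbered samples had a correlation of 0.0708 over 2 pairs, too few to show whether a number marks a shared batch, and the labels do not say so. The replicate block gave 37 calls, and 7 with the length offset added, and none was one of the 7 genes. The threshold of 0.1 and edgeR's robust and legacy options left the log2 fold changes as they were, to rounding, so these could not change sign. Over 133 alternative estimates for the 7 genes, these included, 117 kept sign and side of the threshold, 5 passed it (all without mTOR Tg replicate 2) and 11 changed sign, 5 of them without mTOR Tg replicate 1. Those of Bpifa1 were -0.11 scaled on the other club markers, -0.18 with the length offset and -0.16 with the replicate block and length offset, besides -0.099 without WT replicate 1 and -0.22 without mTOR Tg replicate 1, and those of Scgb1a1 -0.063 and -0.15 with the length offset and with block and offset. With a library left out, log2 fold changes ran from -0.71 to 1.06 for Scgb1a1, -0.24 to 1.76 for Scgb3a1, -0.45 to 1.18 for Scgb3a2, -0.22 to 0.36 for Bpifa1 and -0.039 to 0.78 for Muc5b. The log2 ratio to other club markers of Scgb1a1 (-0.026) was 0.070 against Cyp2f2 and 0.17 against type II markers, and that of Bpifa1 (-0.11) was 0.078 against type II markers. With a library left out those ratios ran from -0.42 to 0.37 for Scgb1a1, -0.16 to 0.50 for Scgb3a2, -0.31 to 0.084 for Bpifa1 and -0.015 to 0.40 for Muc5b. Without Scgb1a1 in the total, the other 6 genes took 0.461% and 0.578% of counts for WT and 1.11% and 0.416% for mTOR Tg. The cause of these changes was not tested. Depth is no limit for the 7 genes, the lowest of which had 1726 counts, and the number of libraries limits the precision.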

Other observations

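Some airway genes had values far apart in the WT pair. These genes were named after their values were seen and were not tested. A gap between the mTOR Tg libraries wider than that between genotypes is not peculiar to them. Every airway secretory transcript examined above had it. For Scgb1a1 the log2 gap between the mTOR Tg libraries was 1.77, against a log2 fold change of 0.43 between genotypes. The share of all tested genes with such a gap was not counted. Clca1, a secreted protein of goblet cells, was at 60.7 and 3.59 CPM in WT replicates 1 and 2 and at 29.5 and 4.16 CPM in mTOR Tg replicates 1 and 2. Retnla, a resistin-like protein of allergic airways, was at 167 and 60.6 CPM in WT and at 212 and 51.2 CPM in mTOR Tg. Chil4, a chitinase-like protein, had 41, 0, 14 and 1 counts in the same order. In all 3 the first replicate of each genotype was the higher. The reverse order of the WT pair was found for Krt15, a basal cell keratin, with 17 and 139 counts for WT and 35 and 51 for mTOR Tg. Ltf, which encodes the iron-binding defence protein lactoferrin, was at 76.5 and 162 CPM in WT and at 226 and 65.4 CPM in mTOR Tg, so its WT libraries were also far apart.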
